A study of Homo sapiens with 4 samples.

Results

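The subunits of the transcription factor AP-1 and a few immediate early factors were compared between PANC-1 cells with and without SIRT1 knockdown. PANC-1 is an established line from a human pancreatic carcinoma. The set held 10 of the 16878 genes in the expression tables and was chosen by gene symbol. It comprised the Jun family (JUN, JUNB, JUND), the Fos family (FOS, FOSB, FOSL1, FOSL2), the related factor ATF3 and the early factors EGR1 and IER2. All 10 symbols were found. RNA-seq was performed on 4 libraries in 2 groups, 2 labelled Control and 2 labelled siSIRT1, 48 h after transfection. The siSIRT1 cells received a small interfering RNA (siRNA) against SIRT1, an NAD-dependent deacetylase of histones and transcription factors, and the labels do not say which RNA the Control cells received. All libraries came from the same line, and 1 siRNA sequence is listed for SIRT1, so an effect of that sequence on other transcripts cannot be told apart from the loss of SIRT1. It is shown here because it defines the treated group.
siSIRT1, sense strand: gugucaugguuccuuugca
Among the 16524 genes with an annotated canonical transcript, the full 19 bases matched 1 transcript, that of SIRT1.

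AP-1 is a dimer of basic leucine zipper proteins. Jun proteins pair with each other or with Fos proteins, whereas Fos proteins bind DNA mainly as partners of Jun. FOS, FOSB, EGR1 and IER2 are classical immediate early genes, switched on within minutes by serum, growth factors or stress and switched off soon after, mainly through serum response factor and the MAP kinases. FOSL1 (also called FRA1) and JUND are made more steadily, and FOSL1 is known to be kept high by RAS and ERK signalling, which is constantly active in most pancreatic cancers.

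Expression was given as FPKM (fragment counts divided by transcript length and by the mapped total of the library), and the depths were estimated at 8780000 to 9140000 reads. The SD of the log2 difference between libraries was 0.16 within Control and 0.21 within siSIRT1, against 0.41 to 0.44 between groups. SIRT1 itself was at 10.46 and 10.25 FPKM in Control, against 1.80 and 2.05 FPKM after SIRT1 knockdown, or 18.6% of the Control level (log2 fold change -1.96, limma adjusted p 1.33e-05). All 6 markers of the line (KRT7, KRT8, KRT18, KRT19, EPCAM and VIM) were at 1 FPKM or more in every library. Of 9 markers of other cells, 7 were listed and 5 of them stayed under 1 FPKM in every library. The blood cell marker PTPRC was at 0.97 to 1.29 FPKM, and no listed marker was at 0 in every library. CD68 was at 60.8 and 63.0 FPKM in Control, against 39.1 and 42.3 FPKM after SIRT1 knockdown, so that the summed markers ran from 62.7 to 65.1 FPKM in Control and from 41.2 to 44.1 FPKM in siSIRT1. CD68 made up most of each sum. Whether other cells were present, or had a part in the results, was not tested.

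In Control cells, JUND and FOSL1 were the most abundant members of their families. JUND was at 117.6 and 106.1 FPKM, above 96.7% of all genes in the tables, and FOSL1 was at 94.08 and 90.23 FPKM, above 95.9%. IER2, a short early-response protein, followed at 64.74 and 57.94 FPKM. JUNB (34.95 and 38.02 FPKM) and JUN (37.06 and 32.56 FPKM) overlapped and could not be ordered. FOSL2 (6.76 and 7.09 FPKM) and ATF3 (7.04 and 6.30 FPKM) also overlapped. EGR1 was lower, at 2.58 and 2.52 FPKM. The classical inducible Fos genes were nearly silent. FOSB was at 0.50 and 0.63 FPKM, about 17 and 21 reads, and FOS at 0.22 and 0.32 FPKM, about 4 and 6 reads. Within the Jun family, JUND held 61.0% ± 1.4 of the summed FPKM, JUNB 20% ± 2.2 and JUN 19.0% ± 0.79 (SD, n = 2). Within the Fos family, FOSL1 held 92.2% ± 0.58 and FOSL2 6.94% ± 0.40, leaving 0.567% ± 0.11 for FOSB and 0.271% ± 0.077 for FOS. FPKM is a value per length, so these levels can be compared between genes, though only approximately, since isoforms were pooled.

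**Figure D1:**
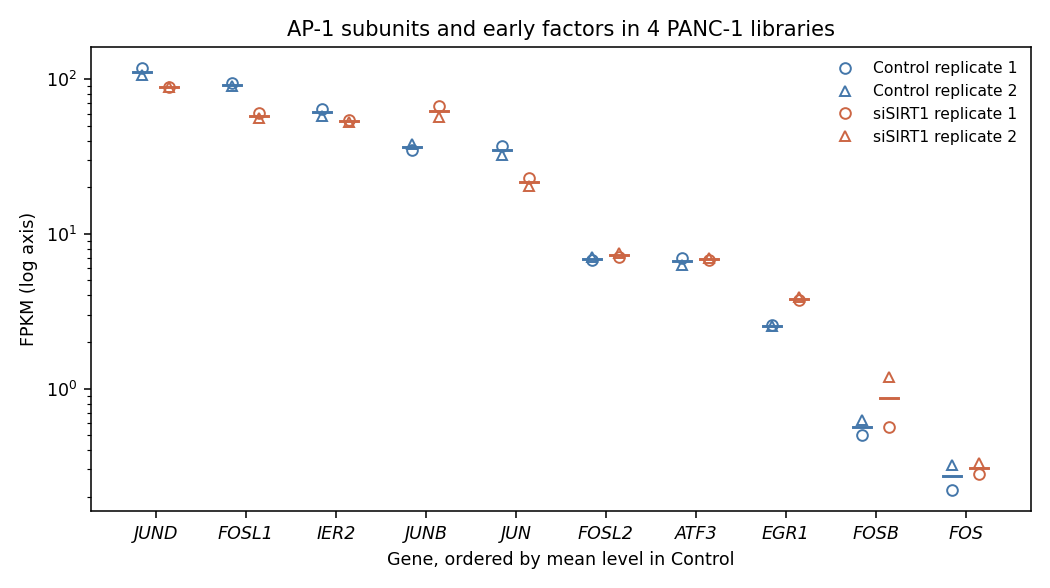
FPKM of the 10 genes on a log axis, ordered by mean level in Control. Circles and triangles are replicates 1 and 2, blue is Control, orange is siSIRT1, and short bars are group means. The 10 genes span from 0.22 FPKM for FOS to 117.6 FPKM for JUND, and JUNB is the member whose siSIRT1 libraries stand highest above Control among those over 1 FPKM.

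The promoters were searched for elements known from early genes and from AP-1 targets. RefSeq promoter windows, from 250 bases before to 50 bases after the start, were found for 9 of the 10 genes (10 windows, since ATF3 has 2 starts) and not for FOSL1. The 250 bases upstream of the start are shown for the Jun genes, which moved in different directions, for EGR1, which rose, and for FOS, which stayed nearly silent (assembly GRCh38.p14, 5′ to 3′ on the strand of the gene). Capitals mark any match, on either strand, to the AP-1 site TGACTCA, the cyclic AMP response element (CRE) TGACGTCA, its part TGACGT, the variant TGACATCA, the CArG box bound by serum response factor, and the TATAAA and CCAAT boxes.
JUN, chr1:58784048-58784297, minus strand: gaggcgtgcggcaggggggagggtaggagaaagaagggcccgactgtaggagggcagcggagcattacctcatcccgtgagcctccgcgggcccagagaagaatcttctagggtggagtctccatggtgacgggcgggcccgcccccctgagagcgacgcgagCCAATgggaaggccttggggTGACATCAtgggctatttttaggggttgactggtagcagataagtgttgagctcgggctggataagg
JUNB, chr19:12791236-12791485, plus strand: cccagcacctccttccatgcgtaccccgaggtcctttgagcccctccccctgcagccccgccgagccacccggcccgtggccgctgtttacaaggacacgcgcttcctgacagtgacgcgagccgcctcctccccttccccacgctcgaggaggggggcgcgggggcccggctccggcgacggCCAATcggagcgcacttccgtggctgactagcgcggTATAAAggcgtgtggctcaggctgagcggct
JUND, chr19:18281623-18281872, minus strand: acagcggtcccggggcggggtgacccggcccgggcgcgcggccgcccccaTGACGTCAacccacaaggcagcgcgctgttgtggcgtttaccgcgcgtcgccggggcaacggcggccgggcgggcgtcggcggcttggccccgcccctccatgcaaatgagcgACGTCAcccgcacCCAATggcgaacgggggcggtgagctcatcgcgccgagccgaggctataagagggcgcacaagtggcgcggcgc
EGR1, chr5:138465229-138465478, plus strand: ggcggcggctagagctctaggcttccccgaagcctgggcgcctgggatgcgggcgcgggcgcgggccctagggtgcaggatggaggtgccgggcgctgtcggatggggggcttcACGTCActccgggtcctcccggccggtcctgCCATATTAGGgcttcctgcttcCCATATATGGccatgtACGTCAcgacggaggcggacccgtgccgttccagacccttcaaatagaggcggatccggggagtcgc
FOS, chr14:75278578-75278827, plus strand: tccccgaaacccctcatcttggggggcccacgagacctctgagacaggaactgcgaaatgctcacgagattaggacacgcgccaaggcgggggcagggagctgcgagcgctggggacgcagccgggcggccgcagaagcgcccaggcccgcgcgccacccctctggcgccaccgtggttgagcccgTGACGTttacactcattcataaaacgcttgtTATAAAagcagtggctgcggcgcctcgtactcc

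Positions are those of the first base of a match on the strand of the gene, counted from the start. JUN carried the variant TGACATCA at position -67, an element present in 2.61% of the 35116 promoter windows of the table and also in an ATF3 promoter. Of the 9 members with a window, JUND alone held a full TGACGTCA, at position -200, which 1.85% of windows held. The shorter TGACGT, which lies within the full element too, was found in 5 members (EGR1, FOS, FOSB, FOSL2 and JUND) and in 7.98% of all windows. EGR1 alone among them held CArG boxes, at positions -105 and -83, against 1.29% of all windows. JUNB held none of the AP-1, CRE or CArG letters in this window but had a TATAAA at position -31. FOSL2 held the AP-1 site TGACTCA just after its start, as did 4.95% of windows. TATAAA was found in 4 members and in 11.5% of windows, and CCAAT in 4 members and in 34.6% of windows. Among the 14524 windows of tested genes, the shares were 1.4% for TGACATCA, 2.78% for TGACGTCA, 10.5% for TGACGT and 1.06% for CArG boxes. They were 3.61% for TGACTCA, 6.03% for TATAAA and 34.7% for CCAAT. These are matches of letters and not measured binding. Elements more than 250 bases upstream were not searched, so a motif absent here may lie outside the window, as for the CArG box in FOS.

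**Figure D2:**
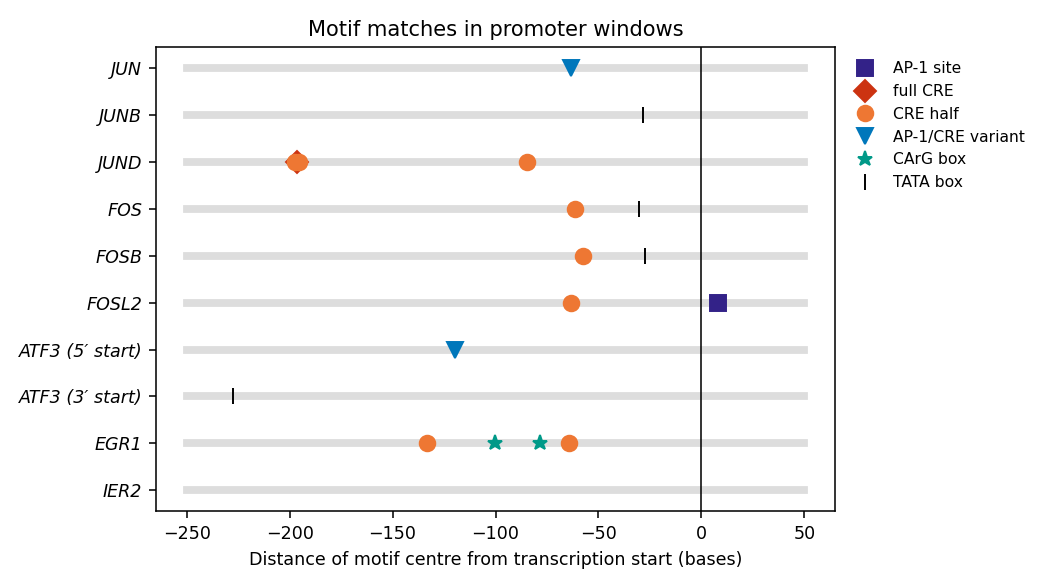
Positions of motif matches in the 10 promoter windows of 9 members. The horizontal axis is the distance of the centre of the motif from the transcription start in bases, grey bars are the windows searched, and the vertical line is the start. EGR1 holds 2 CArG boxes between 2 CRE parts, JUND holds the full CRE, and the IER2 window holds no match.

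After SIRT1 knockdown, the Jun family was rearranged. JUNB rose, and JUN and JUND fell. JUNB, which can both partner Fos proteins and restrain JUN, was at 34.95 and 38.02 FPKM in Control, against 67.68 and 56.77 FPKM after SIRT1 knockdown. The groups did not overlap, and the mean rose 1.71-fold, from 36.5 ± 2.2 to 62.2 ± 7.7 FPKM (SD, n = 2). Its log2 fold change was 0.75 ± 0.09 (standard error), and the limma adjusted p was 0.000414. Fold changes are on the scale of log2(FPKM + 1), and p-values were adjusted over 12191 genes. In bulk RNA, a change in the number of cells that express a gene and a change in RNA per cell cannot be told apart. JUNB is an intronless gene on chromosome 19 that lies within the annotated span of HOOK2 on the other strand. HOOK2 was at 7.45 and 8.38 FPKM in Control, against 9.19 and 8.21 FPKM after SIRT1 knockdown (adjusted p 0.409, limma), and whether the counting used strand is not stated.

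JUN, the founding subunit and the strongest activator of the family, was at 37.06 and 32.56 FPKM in Control, against 22.84 and 20.46 FPKM after SIRT1 knockdown. The groups did not overlap. The mean level fell to 62.2% of Control, with a log2 fold change of -0.66 (standard error 0.09, limma adjusted p 0.000681). JUND, the most abundant Jun gene and a subunit often tied to slow growth, was at 117.6 and 106.1 FPKM in Control, against 88.82 and 88.94 FPKM after SIRT1 knockdown. It too fell without overlap, to 79.5% of Control, with a log2 fold change of -0.33 (standard error 0.07, limma adjusted p 0.00526). Without Control replicate 1 the log2 fold change of JUND was -0.25, and the call was lost in that fit, which leaves 1 Control library. JUN and JUND are intronless like JUNB, and 587 or more reads lay behind each JUN value and 1442 or more behind each JUND value.

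Since JUNB rose while the others fell, the summed Jun family level overlapped between the groups, at 190 and 177 FPKM in Control, against 179 and 166 FPKM after SIRT1 knockdown. Its makeup did not overlap. The JUNB share went from 20% ± 2.2 to 36.0% ± 2.5 of the sum, that of JUND from 61.0% ± 1.4 to 51.5% ± 2.8, and that of JUN from 19.0% ± 0.79 to 12.5% ± 0.30 (SD, n = 2). JUND was the most abundant Jun transcript in all 4 libraries, and the JUNB levels after knockdown overlapped those of FOSL1. The ratio of JUNB to JUN was 0.943 and 1.17 in the Control libraries and 2.96 and 2.77 in the siSIRT1 libraries. With 2 libraries in each group an exact permutation test of such a ratio cannot give a p under 0.333, so these shares and ratios are given as values.

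**Figure D3:**
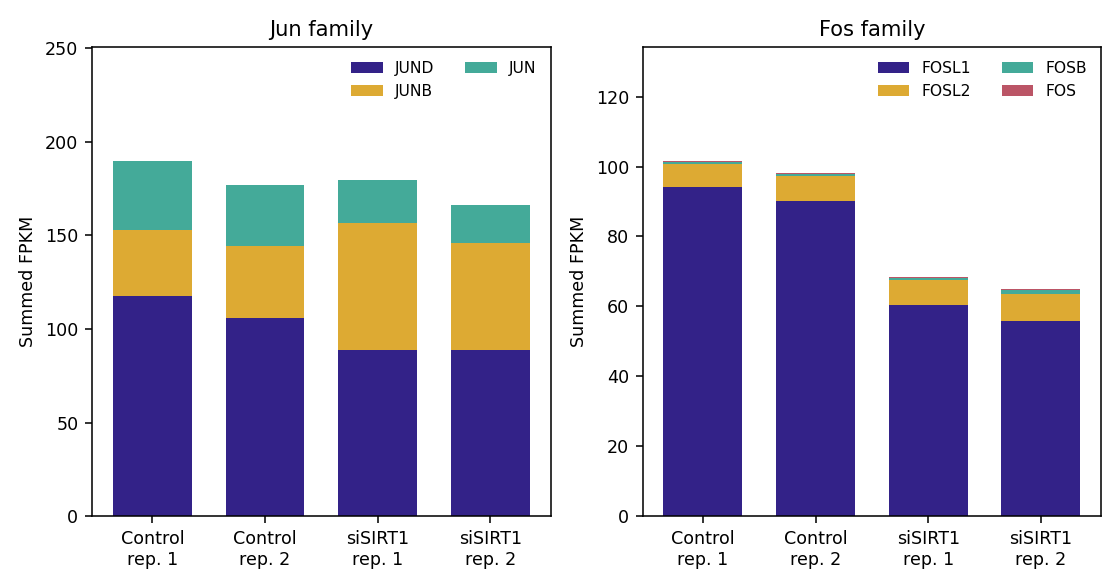
Summed FPKM of the Jun family (left) and the Fos family (right) in each library, as stacked bars that start at 0, with 1 color per gene. The Jun sums lie between 166 and 190 FPKM in all 4 libraries with a thicker JUNB layer in siSIRT1, and the Fos sums are lower in siSIRT1, mostly by the FOSL1 layer.

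In the Fos family FOSL1 fell, and FOSL2 did not pass the test. FOSL1, which lies on chromosome 11, was at 94.08 and 90.23 FPKM in Control, against 60.44 and 55.97 FPKM after SIRT1 knockdown. The groups did not overlap, and the mean fell from 92.2 ± 2.7 to 58.2 ± 3.2 FPKM (SD, n = 2), to 63.2% of Control. Its log2 fold change was -0.65 ± 0.06 (standard error), and the limma adjusted p was 0.000159. FOSL2 (also called FRA2), the other steadily made Fos gene, was at 6.76 and 7.09 FPKM in Control, against 7.06 and 7.56 FPKM after SIRT1 knockdown. Those values overlapped, and the log2 fold change of 0.07 had a 95% interval from -0.16 to 0.30 (limma adjusted p 0.637). FOSL1 thus stood at 13.9 and 12.7 times the FOSL2 level in Control and at 8.56 and 7.40 times in siSIRT1.

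The inducible FOS and FOSB fell below the minimum mean of 1 FPKM and were not part of the test. FOS was at 0.28 and 0.33 FPKM in siSIRT1, about 5 and 6 reads, and overlapped with Control. The reads, 10 in Control and 11 in siSIRT1, gave a ratio per depth of 1.12, with an exact 95% counting interval from 0.431 to 2.94. Falls and rises within that range are compatible with these reads. FOSB was at 0.56 and 1.18 FPKM in siSIRT1, about 18 and 39 reads. Only 1 of the siSIRT1 libraries was above both Control libraries. Its reads, 38 in Control and 57 in siSIRT1, gave a ratio per depth of 1.53, with an exact 95% counting interval from 0.994 to 2.36. Tested without the filter on low values, FOSB had a log2 fold change of 0.24 and a 95% interval from -0.25 to 0.73 (limma adjusted p 0.42). On the log2(FPKM + 1) scale the added 1 shrinks changes at such low levels. FOSB, on chromosome 19, overlaps ERCC1 on the other strand, which was at 73.5 and 64.58 FPKM in Control, against 47.01 and 44.36 FPKM after SIRT1 knockdown. The Fos family sum was 102 and 98.3 FPKM in Control, against 68.3 and 65.0 FPKM after knockdown. For each unit of Jun family FPKM there were 0.546 ± 0.015 units of Fos family FPKM in Control and 0.386 ± 0.0073 in siSIRT1 (SD, n = 2).

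The remaining factors behaved differently from one another. EGR1, a zinc finger factor and a sensitive sign of ERK and serum response factor activity, was at 2.58 and 2.52 FPKM in Control, against 3.74 and 3.90 FPKM after SIRT1 knockdown. It rose 1.5-fold without overlap, with a log2 fold change of 0.44 (standard error 0.12, limma adjusted p 0.0194). These values rested on about 71 and 70 reads in Control, against about 100 and 108 after knockdown. The adjusted p of EGR1 was 0.0909 without Control replicate 1 and 0.111 without Control replicate 2, while the log2 fold change remained at 0.45 and 0.43. ATF3, a stress-induced factor of the ATF family, was at 7.04 and 6.30 FPKM in Control, against 6.83 and 6.97 FPKM after SIRT1 knockdown. The groups overlapped, with a log2 fold change of 0.04 and a 95% interval from -0.20 to 0.28 (limma adjusted p 0.773). IER2 was at 64.74 and 57.94 FPKM in Control, against 54.92 and 52.91 FPKM after SIRT1 knockdown. The groups did not overlap, but the log2 fold change of -0.18 (95% interval from -0.34 to -0.02) had an adjusted p of 0.0752 by limma and did not pass. Its log2 fold change was -0.27 with an adjusted p of 0.0289 under median-of-ratios scaling of the libraries.

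**Figure D4:**
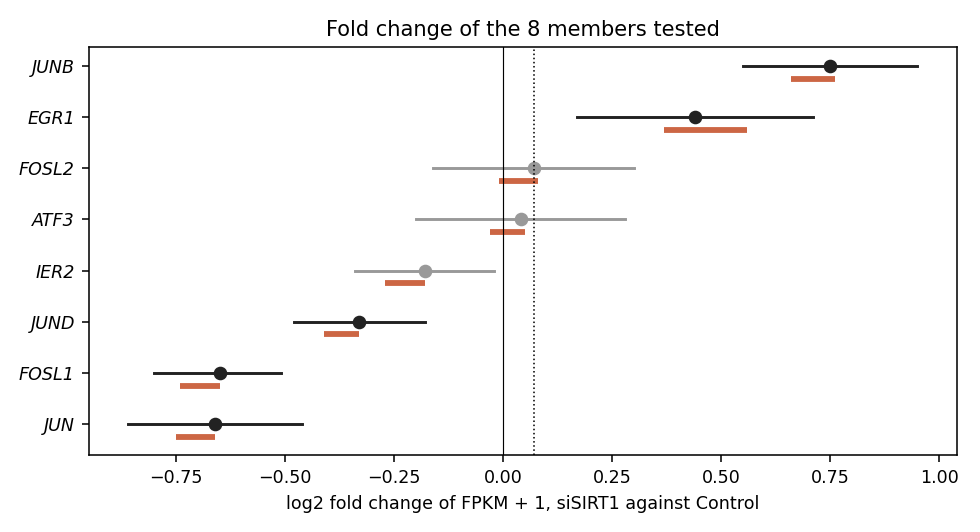
log2 fold change of FPKM + 1 (siSIRT1 against Control) of the 8 members tested, with 95% intervals from limma. Black marks an adjusted p under 0.05 and grey one above it, the orange bars below give the range over the alternative settings that keep all 4 libraries, and the dotted line is the median of all genes tested (0.07). JUNB and EGR1 lie to the right of 0 and JUND, FOSL1 and JUN to the left.

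Of the 10 members, 8 passed the filter on low values and 5 of these were called at an adjusted p under 0.05, 2 higher and 3 lower. Over all 12191 genes tested, 37.1% were called, 24% as higher and 13.1% as lower in siSIRT1. The groups did not overlap in 6 of the 8 members, against 69% of all genes tested. The median log2 fold change of the 8 members was -0.07, against 0.07 over all genes tested. At a fold above 1.2 and an unadjusted limma p under 0.001, the thresholds of the study, 4 of the 8 members passed (18.1% of all genes did): JUN, JUNB, JUND and FOSL1. The test that the study used for these data is not stated, and it reported more genes at those thresholds than limma gave here.

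Other basic leucine zipper genes, which can pair with Jun or Fos proteins or form related dimers, were examined next as a list of 30. Of 26 tested, 12 (46.2%) changed, 3 higher and 9 lower, with a median log2 fold change of -0.10. The rises were those of CEBPD, an acute-phase factor (5.18 ± 0.86 to 8.51 ± 0.18 FPKM), MAFK, a small Maf protein (55.1 ± 0.41 to 73.3 ± 1.8 FPKM), and BATF3, a Jun partner (2.06 ± 0.53 to 3.27 ± 0.16 FPKM, all SD, n = 2). The limma adjusted p of BATF3 was 0.0322. It missed the threshold under each of the 3 other scalings and was 0.256, 0.111 and 0.0702 without Control replicate 2, siSIRT1 replicate 1 and siSIRT1 replicate 2. Among the falls were DDIT3, which encodes the stress factor CHOP (45.7 ± 3.7 to 27.0 ± 1.8 FPKM), NFE2L3, a relative of NRF2 (54.7 ± 2.2 to 33.2 ± 2.4 FPKM), CEBPG (19.9 ± 0.57 to 12.9 ± 1.5 FPKM) and the endoplasmic reticulum stress factor ATF6B (106 ± 3.4 to 71.5 ± 0.11 FPKM).

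Immediate early genes other than the members did not move in 1 direction. Of 18 further early transcription factors, 12 were tested, and 50% of these were called, against 37.1% of all genes tested. Of the 12, 4 were higher and 2 lower, with a median log2 fold change of 0.09. NR4A1, an orphan nuclear receptor induced together with EGR1, was at 3.55 and 3.82 FPKM in Control, against 7.14 and 7 FPKM after SIRT1 knockdown. HES1, the Notch effector, went from 14.5 ± 0.16 to 25.2 ± 2.4 FPKM, BHLHE40 from 40.2 ± 2.5 to 55.9 ± 1.4 FPKM and serum response factor itself (SRF) from 16.4 ± 0.62 to 21.3 ± 0.17 FPKM. KLF2 fell from 2.84 ± 0.54 to 1.36 ± 0.57 FPKM, a call that was lost with no filter on low values, and MAFF from 7.08 ± 0.66 to 4.79 ± 0.36 FPKM. Without 1 library the limma adjusted p of SRF was 0.07 (without Control replicate 1), that of MAFF 0.114 (without Control replicate 2), and that of KLF2 0.0915 and 0.0758 (without Control replicate 2 and siSIRT1 replicate 2). The 29 tested early genes of other kinds included phosphatases, kinases, secreted proteins and some regulators of transcription such as TSC22D1 and ID1. Of these 29, 22 (75.9%, against 37.1% of all genes tested) were called, 7 higher and 15 lower, with a median log2 fold change of -0.23. DUSP2, a nuclear MAP kinase phosphatase, rose from 0.62 and 0.34 FPKM to 7.01 and 6.88 FPKM and passed the filter only through its level after knockdown. HBEGF, named after its values were seen, was among the falls and passed only through its level in Control. Without these 2 genes, 14 of 27 fell and 6 rose, and the median was -0.23. ID1, an inhibitor of helix-loop-helix factors, rose from 97.2 ± 5.1 to 480 ± 24 FPKM, and the kinase SIK1 from 6.87 ± 0.73 to 15.4 ± 0.078 FPKM. The kinase SGK1 went from 3.92 ± 0.40 to 5.45 ± 0.28 FPKM and lost its call under median-of-ratios and upper-quartile scaling, with no filter, and without Control replicate 1, Control replicate 2 or siSIRT1 replicate 2 (adjusted p 0.221, 0.0625 and 0.0877, limma). ERRFI1, an inhibitor of the epidermal growth factor (EGF) receptor, fell from 203 ± 5.9 to 91.9 ± 5.9 FPKM, TSC22D1 from 19.6 ± 0.17 to 8.68 ± 0.29 FPKM, TRIB1 from 7.03 ± 0.0071 to 3.54 ± 0.45 FPKM and IER3 from 195 ± 10 to 118 ± 5.9 FPKM.

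The genes that lie upstream of AP-1 were listed next, followed by genes of MAP kinase feedback. Only RNA levels were measured, and the activity of the pathway was not tested. Of 29 tested kinases and SRF or ternary complex factors, 10 (34.5%) changed, 7 higher and 3 lower, with a median log2 fold change of 0.11. The share was near that of all genes tested, of which 37.1% were called (24% higher and 13.1% lower). HRAS rose from 33.7 ± 0.17 to 64.4 ± 2.1 FPKM, MRTFA, a coactivator of SRF, from 19.5 ± 0.30 to 32.7 ± 0.38 FPKM, the p38 activator MAP2K3 from 24.7 ± 1.6 to 40.8 ± 2.2 FPKM and the ERK-activated kinase RPS6KA1 from 15.7 ± 1.1 to 22.5 ± 0.54 FPKM. ELK3, a ternary complex factor, fell from 10.4 ± 0.021 to 4.50 ± 0.90 FPKM. MAP2K5 also fell, from 9.84 ± 1.0 to 7.33 ± 0.71 FPKM, and lost its call with no filter and without Control replicate 2 or siSIRT1 replicate 1 (adjusted p 0.231 and 0.108, limma). Genes known to restrain MAP kinase or receptor kinase signalling, some of them induced by it, formed the feedback list. Of 15 tested (73.3% called), 8 fell and 3 rose, with a median log2 fold change of -0.38, the lowest of the 7 lists. The Sprouty genes SPRY1, SPRY2 and SPRY4, inhibitors of receptor kinase signalling, were among the falls. SPRY4 was at 22.51 and 23.37 FPKM in Control, against 9.92 and 10.1 FPKM after SIRT1 knockdown, a log2 fold change of -1.12 (limma adjusted p 3.04e-05). SPRY1 fell from 16.1 ± 0.14 to 6.85 ± 0.45 FPKM and SPRY2 from 8.89 ± 0.60 to 4 ± 0.22 FPKM. DUSP2 and ERRFI1 stand in this list too, so the lists are not independent. Without DUSP2, 8 of 14 fell and 2 rose, and the median was -0.42. The rises besides DUSP2 were those of DUSP8 and DUSP14, and the limma adjusted p of DUSP14 (0.0378) missed the threshold under the other scalings and was 0.0874, 0.231 and 0.129 without Control replicate 1, Control replicate 2 and siSIRT1 replicate 1.

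Genes that control the stability and activity of AP-1 proteins were called at a share near that of all genes. Of 17 tested (41.2% called, against 37.1% of all genes tested), 4 were higher and 3 lower, with a median log2 fold change of 0.02. FBXW7, a ubiquitin ligase subunit that marks JUN for decay, went from 3.57 ± 0.16 to 2.53 ± 0.20 FPKM, and DET1, part of another JUN ligase, from 2.85 ± 0.12 to 1.88 ± 0.12 FPKM (SD, n = 2). Both calls were lost with no filter on low values. Without Control replicate 1, Control replicate 2 and siSIRT1 replicate 1 the limma adjusted p was 0.14, 0.228 and 0.113 for FBXW7 and 0.171, 0.112 and 0.0793 for DET1. The deubiquitinase USP28, which opposes FBXW7, went from 11.7 ± 0.19 to 14.4 ± 0.41 FPKM, but its limma adjusted p of 0.0317 missed the threshold under the other scalings of the libraries and was 0.142, 0.193 and 0.0689 without Control replicate 1, Control replicate 2 and siSIRT1 replicate 2. Under each of those scalings 2 of the 17 were higher and 3 lower, with medians of -0.06 to -0.07. The deacetylase HDAC3 went from 23.9 ± 0.57 to 30.9 ± 0.33 FPKM. NCOR1, a corepressor, fell from 28.6 ± 0.68 to 19.8 ± 2.2 FPKM.

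Genes known as AP-1 targets were listed as well. Of 40 listed, 38 were in the tables and 27 were tested (74.1% called, against 37.1% of all genes tested). Of the 27, 14 fell and 6 rose, with a median log2 fold change of -0.21. Of the falls, CXCL8 and HBEGF, named after their values were seen, passed the filter only through their level in Control. Without these genes 12 of 25 fell and 6 rose, and the median was -0.03. Under median-of-ratios scaling 14 of the 27 fell and 1 rose. The EGF receptor ligands AREG and EREG and the matrix gene TNC were among the falls. AREG was at 8.24 and 7.96 FPKM in Control, against 2.29 and 2.22 FPKM after SIRT1 knockdown, a log2 fold change of -1.48 (limma adjusted p 4.47e-05). EREG fell from 13.0 ± 0.18 to 5.49 ± 0.057 FPKM. TNC fell from 3.17 ± 0.35 to 1.10 ± 0.11 FPKM. Among the rises, the gap junction gene GJA1 went from 14.2 ± 0.21 to 21.2 ± 2.0 FPKM. The rises of TIMP1, KRT18 and EZR had log2 fold changes of 0.27, 0.26 and 0.24, and all 3 missed the threshold under median-of-ratios scaling and without either Control library (adjusted p 0.097 to 0.489, limma). Over the 7 lists together, 81 of 146 tested genes (55.5%, against 37.1% of all genes tested) were called, 32 higher and 49 lower. The split was 23 higher and 53 lower under quantile, 19 and 53 under median-of-ratios and 20 and 55 under upper-quartile scaling. The lists were compiled from general knowledge of the pathway, and which of these genes AP-1 controls in PANC-1 cells was not tested.

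**Figure D5:**
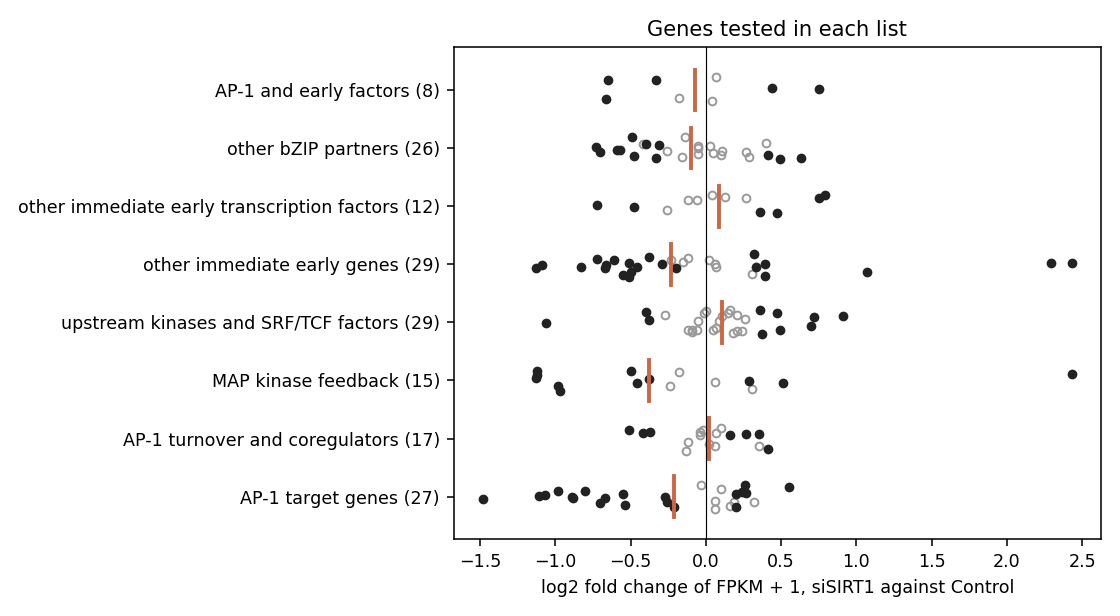
log2 fold change of FPKM + 1 (siSIRT1 against Control) of each gene tested, by list, with the number tested in parentheses and random vertical offsets. Filled points have an adjusted p under 0.05, open points do not, and orange bars are list medians. The medians run from -0.38 for MAP kinase feedback to 0.11 for upstream kinases and SRF/TCF factors, and DUSP2 and ID1 lie farthest to the right.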

How the data were processed

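RNA-seq of PANC-1 cells gave 4 libraries, grouped by the labels. For each library, the authors deposited FPKM values rounded to 2 decimals, by Entrez gene and RefSeq transcripts with isoforms pooled. The submitters' processing notes name Bowtie2, HISAT, RSEM and ChIPseeker without roles. The genome build and strand use are not given in the sources used here. FPKM values depend on the library total, and no scaling between libraries is stated.

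Genes averaging 1 FPKM or more across all 4 libraries were tested with limma 3.58.1 (R 4.3.3; lmFit, then eBayes with trend) applied to log2(FPKM + 1), two-sided, with Benjamini-Hochberg adjustment over all 12191 genes and a threshold of 0.05. The fit was run on simulated counts with known changes at equal depth and a fixed spread, which may differ from the spread of these libraries. Gene identifiers were matched to RefSeq for names (16846 of 16878), and promoter sequences are RefSeq's. Exons, transcript lengths and overlaps are from GENCODE release 44 on GRCh37. Depth was estimated from the steps of low FPKM values of single-exon genes (85 to 105 per library, length offset 80 bases), and reads behind a gene are approximate. Intervals on reads cover counting error only.

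The members and lists were chosen with earlier results of these data known. Named genes are all members, SIRT1, and up to the 4 largest rises and falls passing in each list, of which a few are not reported here. HOOK2 and ERCC1 were added after their values were seen. The labels do not say that replicates are separate cultures, so p-values measure the spread between these libraries, which may be technical. Alternatives were a pseudocount of 0.1, no filter, quantile, median-of-ratios and upper-quartile scaling, a replicate block and no trend. Others were the thresholds of the study applied to the limma p-values, leaving out each library, and, for family shares, weighting by length.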

Additional observations from a re-analysis of the deposited data

How the results depend on the processing

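JUN, JUNB and FOSL1 kept their direction and passed under every alternative and without any 1 library, as did JUND under every alternative that kept all 4 libraries. EGR1 did so too, except at the thresholds of the study (unadjusted p 0.00547). IER2 (adjusted p 0.0752) passed under quantile (0.0161), median-of-ratios (0.0289) and upper-quartile (0.0219) scaling and with the replicate block (0.0198), and the cause was not tested. The uncalled FOSL2 log2 fold change turned to -0.0093 and -0.0031 under median-of-ratios and upper-quartile scaling. That of ATF3 turned to -0.0006, -0.033 and -0.027 under quantile, median-of-ratios and upper-quartile scaling and ran from -0.025 (without Control replicate 2) to 0.11 with 1 library left out. These scalings moved the median of all genes by at most -0.08 on the log2 scale. They moved the share of rises among all calls from 64.8% (2930 of 4521) to 53.3%, 49.6% and 51.3%.

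The number of members called was 5, or 6 under those scalings and with the block, and 3 to 5 without 1 library (3 without Control replicate 1, 4 without Control replicate 2). Over all genes it was 4521, 2710 to 4582 without 1 library (2808 and 2710 without Control replicates 1 and 2, where the lone Control library is taken to vary like the siSIRT1 group) and 2207 at the thresholds of the study, a stricter rule. In the pathway lists it was 81, 49 to 80 without 1 library (49 without Control replicate 2) and 46 at those thresholds. Among list genes at 1 FPKM or more on average in both groups, an alternative added after the data were seen, it was 78 of 143. Same-numbered libraries deviated together with a correlation of 0.123 across genes, and the labels tie them by number only. With the replicate block 5393 genes, 6 members and 92 pathway genes were called.

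Weighted by length, as shares of reads, JUND held 54.2% and 48.1% of the Jun family in Control and siSIRT1, JUNB 16.8% and 31.8%, and JUN 29.0% and 20.1%. FOSL1 held 75.5% and 64.3% of the Fos family, FOSL2 23.2% and 33.1%, and FOSB 1.06% and 2.20%. These differ from FPKM shares by construction. Depth limits FOS, at 4 to 6 reads in each library.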
